A study of Mus musculus with 6 samples.

Results

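Ago footprints found mainly in libraries from APOBEC1-deficient macrophages are described here. Members were chosen by the number of libraries that held them. A footprint was counted as KO-led when 2 or 3 of the 3 knockout (KO) libraries held it and at most 1 of the 3 wild-type (WT) libraries did. This rule took 321 of the 6270 footprints in the table, or 5.12%. The libraries came from bone marrow-derived macrophages (BMDMs) of C57BL/6 mice aged 6 to 12 weeks, 3 littermate pairs of APOBEC1-deficient (Apobec1-/-) and wild-type animals. Cells of both genotypes had grown in M-CSF (20 ng/mL, and 40 ng/mL at feeding) and matured for 7 days, and the Ago antibody was 2A8. The labels do not say which piece of Apobec1 is missing. The deposited table holds 1 combined occupancy per genotype and no value per library, so differences between KO and WT have no replicate check, no test and no SD.

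Argonaute (Ago) proteins carry miRNAs to mRNAs, mostly in 3′ UTRs, where pairing of the miRNA seed with the target lowers translation or mRNA stability. In HITS-CLIP, RNA is cross-linked to Ago by ultraviolet light, recovered with an antibody and sequenced, and a footprint is the stretch around the peak of the recovered reads. APOBEC1 is a cytidine deaminase that changes C to U in mRNA, chiefly in AU-rich stretches of 3′ UTRs in macrophages and in the small intestine. Occupancy, the authors' value, is the footprint signal divided by the RNA-Seq expression of the transcript. It therefore ranks Ago binding relative to mRNA level and has no unit.

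The miRNAs whose sites are counted below include 3 families that had the most sites in KO-led footprints. Their mature sequences, from RefSeq (GRCm38.p6), are shown so that the sites can be read against them. Capitals mark the seed, bases 2 to 8. The first 6 miRNAs share 1 seed, the next pair shares another that is shifted by a base, and the last has its own.
miR-15a-5p: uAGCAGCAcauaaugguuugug
miR-15b-5p: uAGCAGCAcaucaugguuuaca
miR-16-5p: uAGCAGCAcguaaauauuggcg
miR-195a-5p: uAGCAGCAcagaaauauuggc
miR-322-5p: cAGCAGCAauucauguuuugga
miR-497a-5p: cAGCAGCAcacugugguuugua
miR-103-3p: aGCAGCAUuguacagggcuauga
miR-107-3p: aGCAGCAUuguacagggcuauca
miR-34a-5p: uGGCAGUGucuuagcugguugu

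The main sequence property of the KO-led footprints was a high content of G and C. The central 30 nt of all 7 footprints in the 3′ UTR of Zbtb7a, the gene with most KO-led footprints, show it within 1 transcript for 3 of its 4 KO-led footprints. The central stretch of the other, at 80612625, holds 40% G+C, no more than those of the footprints from the other classes. The 7 stretches are given 5′ to 3′ on the plus strand of chromosome 10 (mm9), with every G and C in capitals, and are listed from the stop codon onwards.
Zbtb7a, held by both genotypes, chr10:80611163-80611192: GGtaaCttCGCaaCCtGaCtCGtattaaaa
Zbtb7a, KO-led, chr10:80611364-80611393: tGtGGCCCCatCtGCtCCtGtGtCCCtCGt
Zbtb7a, WT-led, chr10:80612104-80612133: CCCCaaGattttaGtaaaCaCGaaGGCaGa
Zbtb7a, KO-led, chr10:80612625-80612654: tCtttttaCtCaaaGGCaCtGaCtGtaaCC
Zbtb7a, KO-led, chr10:80613222-80613251: tGGCCaGtGGCCaCtaGaCttGGGGtGGat
Zbtb7a, WT-led, chr10:80613813-80613842: attatGGtGaatttGCGtGtGtGtGtGtGt
Zbtb7a, KO-led, chr10:80613939-80613968: CCtGaGCaaGGCCaCCCCtGCtGaGtaGtt
Over their whole lengths the 4 KO-led footprints held 57.8%, 58.2%, 54.7% and 60% G+C, the 1 held by both genotypes 47.8%, and the WT-led pair 31.9% and 42.4%.

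The KO-led footprints are set beside 2 other classes that together make up the rest of the table. Footprints held by both had at least 2 libraries of each genotype (2196 footprints). WT-led footprints had at least 2 WT libraries and fewer than 2 KO libraries (3753 footprints). Medians carry 95% binomial intervals of order statistics and shares carry 95% Wilson intervals. Both give the precision of a median or share over footprints, or over genes for differences within genes. Neither gives the spread of single footprints. Footprints are no replicates of a genotype, and no test was made on differences between the classes. The depth of the libraries is unknown, since the table gives no read counts.

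Of the KO-led footprints, 283 were held by 2 KO libraries and 38 by all 3. Of all members, 292 were held by 1 WT library and 29 by none. Their median occupancy was 0.660 in KO, with quartiles of 0.343 and 1.24. In WT the median was 0.166, with quartiles of 0.0906 and 0.337. The median log2 ratio of KO over WT was 1.72 (1.55 to 1.85), with a pseudocount of 0.00161 added to both values. In all, 305 had the higher value in KO and 234 (72.9%) were higher by 2-fold or more, beside 18.9% of the whole table. None was lower in KO by 2-fold, beside 24.2% of the whole table. The rule chose on the same contrast, so these figures only describe the choice.

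**Figure D1:**
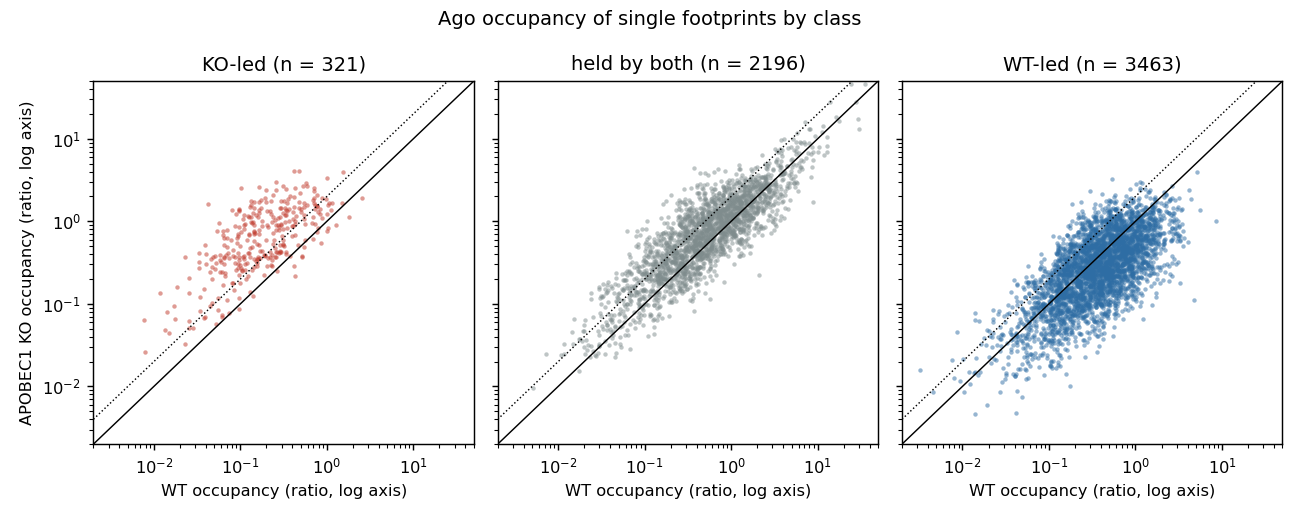
Occupancy in KO (vertical) against WT (horizontal) for single footprints, both on log axes, in 3 classes. The solid line marks equal values and the dotted line a KO value 2-fold higher. The WT-led panel leaves out 290 footprints listed at 0 in KO. Of the KO-led footprints, 234 of 321 lie on or above the 2-fold mark.

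On either side of the limit the values changed by steps. The 258 members with 2 KO and 1 WT library had medians of 0.603 in KO and 0.166 in WT. The 1127 footprints just outside, with 2 KO and 2 WT libraries, had 0.688 in KO and 0.408 in WT. The 1819 footprints with 1 KO and 2 WT libraries had 0.375 in KO and 0.339 in WT. The members with 2 KO and 1 WT library and the footprints with 2 KO and 2 WT libraries had similar KO medians and different WT medians. Those sets differ only in the number of WT libraries, which the rule used, so this only describes the choice. The 29 members that no WT library held all have WT values above 0 in the table, between 0.0117 and 0.824. No label or header explains how such values were obtained. The mean of both genotypes had a median of 0.423 over the KO-led footprints and 0.425 over the other 5949, so the members were neither the strongest nor the weakest sites of the table.

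All 3 KO libraries and no WT library held 4 footprints. The one in Snx30, which encodes a sorting nexin of endosomes, had an occupancy of 1.61 in KO and 0.0421 in WT. The one in Srgap2, a regulator of Rac GTPase and membrane shape, had 1.38 in KO and 0.333 in WT. In Nipa2, a magnesium transporter, the values were 1.38 in KO and 0.0806 in WT. In Wdr82, a subunit of a histone H3 lysine methyltransferase complex, they were 0.761 in KO and 0.0531 in WT. Their log2 ratios were 5.20, 2.05, 4.07 and 3.80. The central 30 nt are shown because these 4 sites are the plainest cases of the rule. Capitals mark G and C (mm9, read on the strand named).
Snx30, chr4:59916704-59916733, plus: CtaGCaCCCGtGCtCaCtGttGttGGaCGG
Srgap2, chr1:133183601-133183630, minus: aaGCCaaaaGGaGCCGGCCaCCCCaGGCCt
Nipa2, chr7:63187762-63187791, minus: CtGtGCtatCaGttaGtaCttGCtGtttCC
Wdr82, chr9:106091732-106091761, plus: tCCCaCaGtCtCCtGtGGGGGGtCCtGCtG
Over the whole footprint G+C was 60.6% in Snx30, 52.5% in Srgap2, 47.9% in Nipa2 and 48.6% in Wdr82.

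The highest KO occupancies among the members belonged to genes of many functions. Fbxo11, the substrate-binding subunit of a ubiquitin ligase, had 4.08 in KO and 0.413 in WT. Slc7a8, a carrier of neutral amino acids, had 4.04 in KO and 0.481 in WT at a footprint that no WT library held. Cenpo, a centromere protein, had 3.95 in KO and 1.53 in WT. These 3 sites had similar KO values, while their log2 ratios ran from 1.37 for Cenpo to 3.30 for Fbxo11. Slc4a7, a sodium bicarbonate cotransporter, had 3.35 in KO and 1.01 in WT, and 3 KO libraries held the site. Fam126a, a partner of a phosphoinositide kinase at the plasma membrane, had 3.03 in KO and 0.261 in WT, also in 3 KO libraries. Traf3, an adaptor of TNF receptor and interferon signalling, had 2.90 in KO and 0.578 in WT. Vav1, a signalling protein and exchange factor of blood cells, had 2.70 in KO and 0.523 in WT. The others of the 10 were Med21 of the Mediator complex (2.67 in KO and 0.307 in WT), Nsd1, a histone methyltransferase (2.67 in KO and 0.583 in WT), and Pafah1b1, a regulator of dynein (2.64 in KO and 0.164 in WT).

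At the other end, 16 members had the lower value in KO although more KO than WT libraries held them. The one with the highest KO occupancy lay in Nr2c2, an orphan nuclear receptor, with 1.93 in KO and 2.56 in WT. Eif1a, a translation initiation factor, had 1.13 in KO and 1.78 in WT. Ets2, a transcription factor of macrophages, had 0.893 in KO and 1.27 in WT, and Rassf5, a Ras effector, had 0.542 in KO and 0.844 in WT. Il6ra, the interleukin-6 receptor, had 0.379 in KO and 0.515 in WT. A single WT library held each of these, so the number of libraries and the combined occupancy pointed in opposite directions there.

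Most of the KO-led footprints, 309 (96.3%, 93.6% to 97.8%), overlapped a 3′ UTR on their own strand, beside 96.7% of the other footprints. The deposited values are named as 3′ UTR occupancy, so a high share in 3′ UTRs was given in advance for every class. It does not describe where Ago binds in these cells. Of the rest, 1 lay in the coding sequence of Atp2a2, the calcium pump of the endoplasmic reticulum, 4 in other exons and 1 in an intron of Glb1, the lysosomal beta-galactosidase gene. The intronic footprint had 2.53 in KO and 0.101 in WT. The remaining 6 overlapped no gene on their strand. As for the other strand, 12 members (3.74%) also lay opposite an exon there, close to the 3.09% of all footprints. With a coding sequence counted before a 3′ UTR, the share in 3′ UTRs was 90.3%.

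G+C content had a median of 50.8% (49.5% to 52.0%) in KO-led footprints. It was 45.1% (44.6% to 45.5%) in those held by both and 41.0% (40.6% to 41.4%) in WT-led ones. At least 50% G+C was found in 55.5% of the KO-led footprints, 31.7% of those held by both and 19.0% of the WT-led ones. The members themselves ranged widely. Bicd2, a dynein adaptor, was the richest at 67.9% G+C, with an occupancy of 1.43 in KO and 0.144 in WT. Cic, a transcriptional repressor, had 65.1% G+C, with 0.301 in KO and 0.0405 in WT. St8sia4, a polysialyltransferase, was the poorest at 22.2% G+C, with 1.31 in KO and 0.406 in WT. Slc5a3, the myo-inositol transporter, had 27.7%, with 1.70 in KO and 0.473 in WT.

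Read the other way, the share of footprints that were KO-led was 0.835% below 30% G+C and 0.723% from 30% to 35%. It was 3.33% from 40% to 45%, 9.45% from 50% to 55%, 13.6% from 55% to 60% and 13.3% at 60% and above. Among all footprints the median G+C content was 38.7% where no KO library held the footprint, 42.9% with 1 KO library, 45.5% with 2 and 46.9% with 3. Within the members it was 50.6% with 2 KO and 1 WT library, 54.7% with 2 KO and no WT library (25 footprints) and 51.7% with 3 KO and 1 WT library (34 footprints). Each of these member sets had a higher median than any set held by 2 or more WT libraries, of which the highest was 47.1% in footprints held by all 6.

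**Figure D2:**
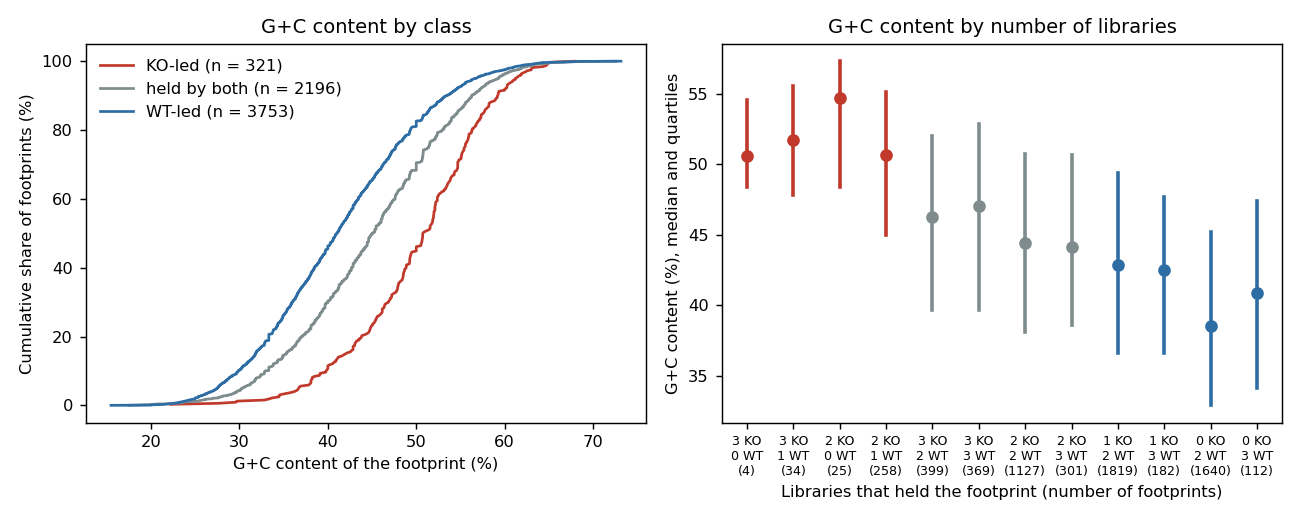
Left, cumulative share of footprints by G+C content (%) for the 3 classes. Right, median (point) and quartiles (bar) of G+C content for each combination of KO and WT libraries, with the number of footprints in brackets. The KO-led curve lies to the right, with a median of 50.8%, against 45.1% for footprints held by both and 41.0% for WT-led ones.

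The difference was found at every level of occupancy. With the table split into 4 equal parts by mean occupancy, in the lowest the median G+C was 51.6% in KO-led footprints, 48.1% in those held by both and 43.4% in WT-led ones. In the highest it was 49.3%, 43.3% and 39.7% in the same order of classes. Of the 4 bases C differed most. Its median share was 29.1% in KO-led footprints, 24.6% in those held by both and 20.6% in WT-led ones. G had medians of 21.5%, 19.7% and 19.4% in that order, A 22.4%, 26.2% and 28.6%, and T 26.3%, 28.4% and 29.7%.

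The classes differed more in the footprints than in the sequence around them. Windows of the same length, 50 nt beyond either end, had a median G+C of 47.8% around KO-led footprints, 44.5% around those held by both and 43.1% around WT-led ones. The sharper comparison is within a gene. Of the 276 genes with a KO-led footprint, 201 (72.8%) also carried other footprints, 931 in all. In these 201 genes the KO-led footprint had a median of 5.95 points more G+C than the others of the same gene (4.34 to 7.05), and more in 149 of 201 genes. The windows around them differed by 0.19 points (-0.73 to 1.74), with more in 102 of 201 genes. Set against WT-led footprints alone the difference was 6.25 points over 183 genes, and against those held by both it was 3.77 points over 137 genes. C made up most of it, with 4.99 points more C and 0.94 points more G. The median difference was -3.70 points for A and -1.92 points for T.

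**Figure D3:**
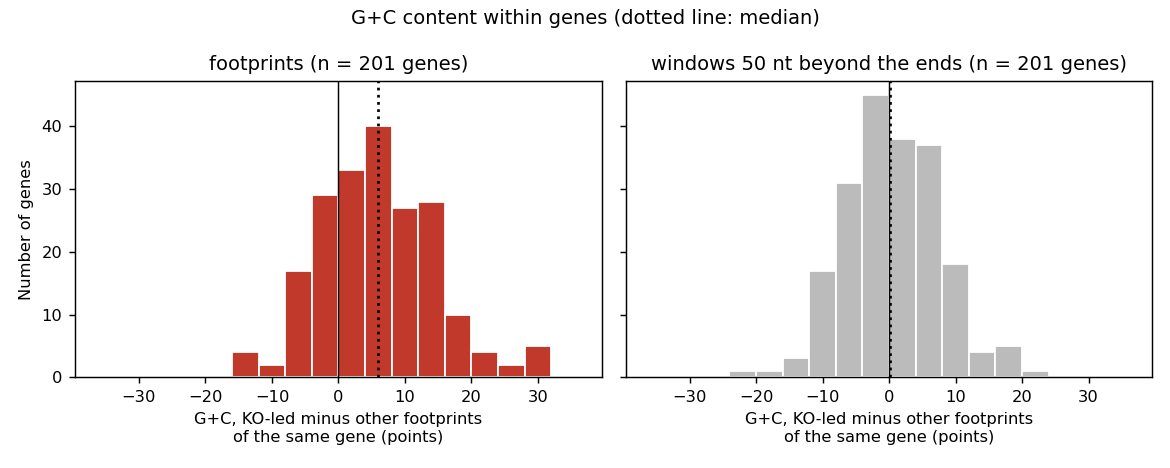
Number of genes (vertical) by the difference in G+C content (points) between the KO-led footprints and the other footprints of the same gene, for 201 genes. Left, the footprints, with a median of 5.95 points and 149 genes above 0. Right, windows of the same length 50 nt beyond the ends, with a median of 0.19 points and 102 genes above 0.

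The other footprints of these genes did not share the KO to WT ratio of the members. The 931 others had a median log2 ratio of -0.04 with quartiles of -0.93 and 0.71, and 17.7% of them were higher in KO by 2-fold. The 4915 footprints of the 1947 genes without a member had a median of -0.14, with 15.5% higher in KO by 2-fold. The class of a footprint restricts its ratio, so this is a description. Another 23.6% of the 931 were lower in KO by 2-fold, so other sites of the same transcripts had ratios in both directions.

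Zbtb7a, a transcriptional repressor of blood cell development, held 4 KO-led footprints among its 7. From the stop codon onwards their occupancies were 0.716, 1.87, 0.854 and 1.72 in KO, against 0.147, 0.352, 0.0962 and 0.166 in WT. The WT-led pair had 0.176 and 0.689 in KO, against 0.337 and 0.722 in WT. KO-led footprints lay on both sides of each WT-led one. Cbx5, the heterochromatin protein HP1 alpha, had its 3 KO-led footprints at the far end of a long 3′ UTR, past its 9 WT-led ones. Their occupancies were 1.44, 0.890 and 1.33 in KO, against 0.288, 0.269 and 0.0972 in WT. The WT-led footprints of Cbx5 had log2 ratios from -1.78 to 3.13. Slc7a8 had its 3 KO-led footprints at 0.49, 0.77 and 0.84 of its 3′ UTR length, past its 4 others, with 4.04, 0.951 and 0.915 in KO, against 0.481, 0.666 and 0.721 in WT. Acp2, a lysosomal acid phosphatase, held 3 of 11. Sh3gl1, an endophilin of endocytosis, had no other class of footprint, and its 3 had 0.856, 0.423 and 0.686 in KO, against 0.280, 0.297 and 0.424 in WT.

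**Figure D4:**
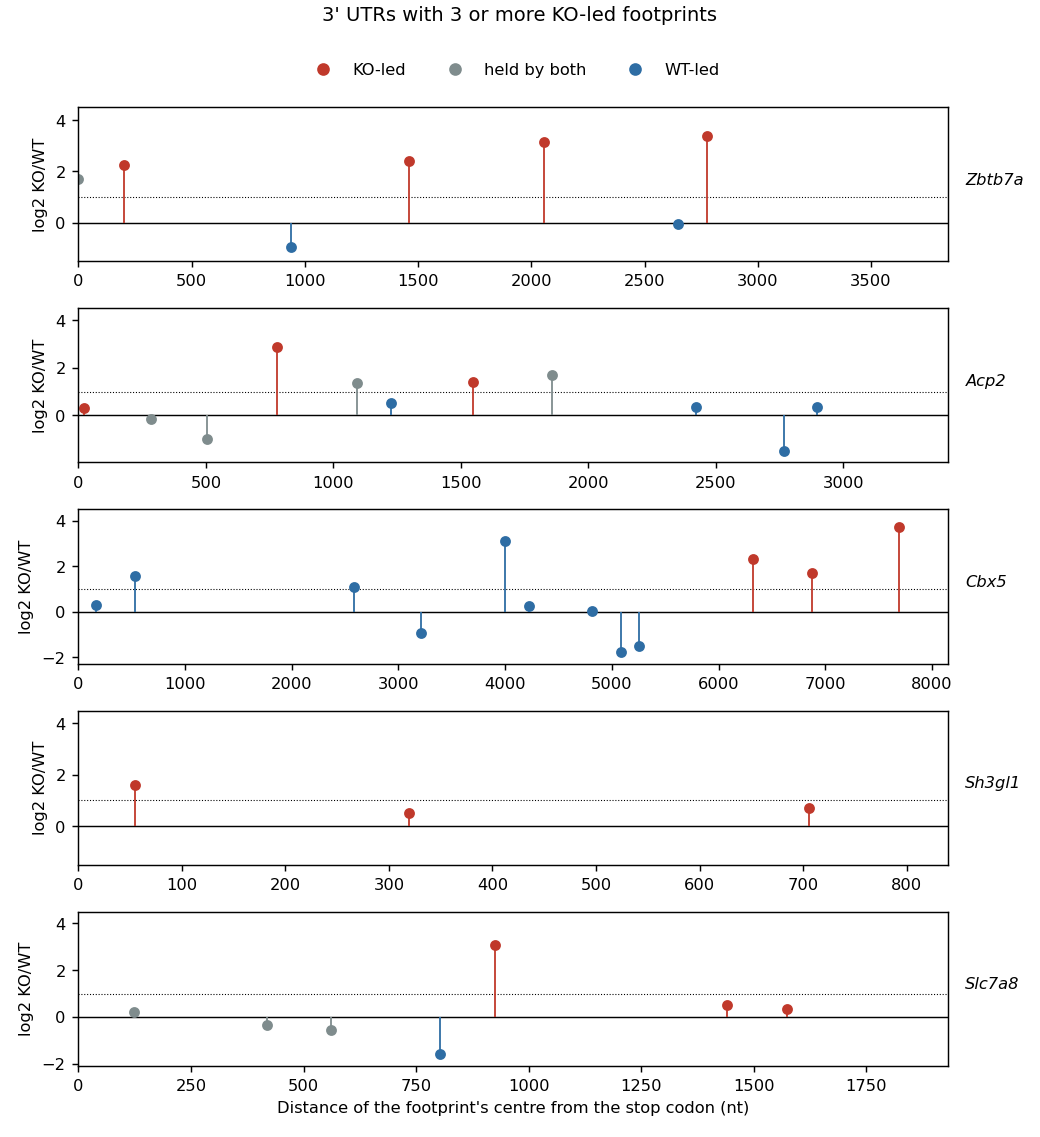
Log2 ratio of KO over WT occupancy (vertical) at each footprint of the 5 genes with 3 or more KO-led footprints, by the distance of its centre from the stop codon (nt). Colours give the class, and the dotted line marks a KO value 2-fold higher. In Zbtb7a KO-led footprints lie on both sides of each WT-led one, while the 3 KO-led footprints of Cbx5 lie past its other 9.

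A pair of KO-led footprints was found in 28 genes, and 243 genes had 1. Vav1 had no others, and its pair had 0.620 and 2.70 in KO, against 0.0697 and 0.523 in WT. Eif2c2, which encodes Ago2 itself, had 2 KO-led footprints among 12. The first was held by 2 KO libraries and no WT library, with 1.60 in KO and 0.134 in WT. The second was held by 3 KO libraries and 1 WT library, with 1.26 in KO and 0.141 in WT. Summed over all 12, occupancy was 21.8 in KO and 19.4 in WT, and the log2 ratio was 0.17. Eif2c1, which encodes Ago1, had a KO-led footprint with 1.52 in KO and 0.774 in WT. Tet3, an enzyme that oxidises methylcytosine in DNA, had 2 among 18, with 2.23 and 1.13 in KO, against 0.495 and 0.158 in WT. Its sum was 27.7 in KO and 27.3 in WT. Qk, a splicing regulator and the gene with most footprints among the members' genes, had 2 of 26, and its sum was lower in KO, with 24.4 in KO and 33.6 in WT. These sums add footprints that were called separately, the members included, and the strongest footprints weigh most in them.

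Footprints held by at least 2 WT libraries were less frequent next to members than next to the other classes. Neighbours held by fewer WT libraries were not counted. Of the 276 genes with a member, 75 carried members only, which lowers the share for members. A footprint held by at least 2 WT libraries lay within 200 nt of 121 KO-led footprints (37.7%, 32.6% to 43.1%). The share was 49.4% for footprints held by both and 44.8% for WT-led ones. Within 50 nt it was 6.54% for KO-led footprints, 13.1% for those held by both and 13.7% for WT-led ones. Such a footprint abutted or overlapped 4 members (1.25%), and this was not counted for the other classes. Members were 63 to 228 nt long with a median of 75 nt, against 69 nt for footprints held by both and 73 nt for WT-led ones. The longest lay in Nubp1, an iron-sulfur cluster assembly factor, with 0.669 in KO and 0.397 in WT. In all, 31 members (9.66%, 6.89% to 13.4%) reached 100 nt, close to the 8.82% of all footprints.

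The position in the 3′ UTR, set as 0 at the stop codon and 1 at the annotated end, had a median of 0.40 in KO-led footprints (0.35 to 0.46). It was 0.44 (0.42 to 0.47) in footprints held by both and 0.47 (0.45 to 0.49) in WT-led ones. These positions use the longest annotated 3′ UTR. With the shortest the median was 0.46 in KO-led footprints (0.40 to 0.53), 0.47 in those held by both and 0.50 in WT-led ones. The interval of the members then includes the medians of the other classes. The first 50% of the 3′ UTR held 58.5% of the KO-led footprints (52.8% to 63.9%), against 55.6% of those held by both and 53.1% of the WT-led ones. Within genes the members lay nearer the stop codon than the WT-led footprints by a median of 0.11 of the 3′ UTR length. The difference from footprints held by both was -0.01 (-0.10 to 0.07).

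Seed sites were counted as 7-nt matches to bases 2 to 8 of 72 miRNAs in 29 families, on the strand of the footprint. At least 1 site was present in 76 KO-led footprints (23.7%, 19.4% to 28.6%), in 23.0% of those held by both (21.3% to 24.8%) and in 20.5% of the WT-led ones (19.2% to 21.8%). The windows around the KO-led footprints had a site in 22.4% of cases on the upstream side and 14.0% on the downstream side. The share with any site was thus close between the classes, and for members it was close to that of their upstream windows.

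Which families had sites did vary with the class. Families whose site holds 4 or more G or C (11 of the 29) had sites in 15.3% of the KO-led footprints (11.7% to 19.6%), 9.65% of those held by both and 7.65% of the WT-led ones. Families with 3 or fewer (18 of the 29) had sites in 10.3% of the KO-led footprints (7.41% to 14.1%), 15.3% of those held by both and 14.1% of the WT-led ones. Sites with much G and C were thus more frequent, and the others less frequent, in the class that had most G and C. Members had no site of miR-21, miR-101, miR-142-5p, miR-191 or miR-99/100, and 0 of 321 allows a share of up to 1.18% by the Wilson interval. The shares of miR-21 (0.431%), miR-142-5p (0.973%), miR-191 (0.271%) and miR-99/100 (0.0797%) over all footprints lie under that limit, so their absence was not detectable as a difference. For miR-101 the shares were 2.14% of footprints held by both and 1.68% of the WT-led ones, above the limit. The windows around members had 1.25%. This was 1 of 29 families looked at, with no allowance for their number. Its sites are among those with 3 or fewer G or C, and its share at like G+C content was not tested. The miR-23 site was in 1 member (0.312%, 0.0550% to 1.74%), against 1.59% of footprints held by both and 1.52% of all. The miR-27 site was in 2 members (0.623%, 0.171% to 2.24%), against 2.19% of footprints held by both and 1.59% of all. The intervals of the members reach past those shares.

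The miR-15/16 site, TGCTGCT, was the most frequent, in 15 KO-led footprints (4.67%, 2.85% to 7.57%). Footprints held by both had it in 2.37% (1.81% to 3.09%) and WT-led ones in 1.55% (1.20% to 1.99%), and windows around the members in 1.87%. Among footprints of at least 45% G+C the shares were 5.26% (3.10% to 8.80%) in KO-led footprints, 3.17% (2.29% to 4.38%) in those held by both and 2.08% (1.43% to 3.00%) in WT-led ones. The first 2 intervals overlap there. Only 3 of the 15 sites were followed by an A, and 1 of the 38 members held by 3 KO libraries had a site. The site shared by miR-103 and miR-107, ATGCTGC, was found in 6 members. It overlaps the miR-15/16 site by 6 bases, and 3 of the 6 (Rap2c, Btg2 and Cbx5) had both in 1 run. The miR-34 site, CACTGCC, was also found in 6. Either site was thus in 1.87% of the members (0.859% to 4.02%). The miR-34 site was in 1.23% of footprints held by both, 0.693% of WT-led ones and 1.71% of windows around members. The miR-103 site was in 1.18%, 0.773% and 0.935% in that order. The interval of the members includes the shares of footprints held by both and of the windows. It overlaps the intervals of the WT-led ones. Neither site thus stood out in the members.

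Sites with high KO occupancy are shown for the 3 families. Rap2c and Btg2 are shown under miR-15/16, and the A before their capitals completes the miR-103 site. Capitals mark the 7-nt site, and each sequence is read on the strand named (mm9).
miR-15/16 in Slc4a7, chr14:15630389-15630418, plus: attcatttccaaagttcccattTGCTGCTa
miR-15/16 in Rap2c, chrX:48359891-48359920, minus: actcagaggaaatttgcacagaTGCTGCTt
miR-15/16 in Zbtb7a, chr10:80613946-80613975, plus: aaggccacccctgctgagtagtTGCTGCTc
miR-15/16 in Parvb, chr15:84144017-84144046, plus: catccccatccgtcttgcggttTGCTGCTt
miR-15/16 in Btg2, chr1:135973066-135973095, minus: gggaaccacacgacagtctgaaTGCTGCTa
miR-103 in Cdk6, chr5:3521078-3521107, plus: ccatttcgttttctaaccttgaATGCTGCc
miR-34 in Atxn1l, chr8:112254509-112254538, minus: ctatgttgtgccttagtgcctgCACTGCCc
miR-34 in Wrb, chr16:96378498-96378527, plus: gccttacagcaggagctgggctCACTGCCt
Rap2c, a small GTPase, had 1.76 in KO and 0.131 in WT at this footprint, the largest ratio of the group (log2 3.73). Parvb, an adaptor of integrin-linked kinase, had 1.26 in KO and 0.308 in WT. Btg2, an antiproliferative gene and partner of the CCR4-NOT deadenylase, had 1.17 in KO and 0.436 in WT. Cdk6, a kinase of the G1 phase, had 1.57 in KO and 0.583 in WT. Atxn1l, a chromatin-associated repressor, had 2.53 in KO and 0.712 in WT, and Wrb, a receptor for tail-anchored proteins, had 1.35 in KO and 0.343 in WT. Over the 15 members with a miR-15/16 site the median occupancy was 0.922 in KO and 0.297 in WT.

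Short motifs differed between the classes in the direction of the base composition. They were searched on the footprint's strand. A run of 4 C, CCCC, was in 35.2% of the KO-led footprints (30.2% to 40.6%), 25.7% of those held by both and 17.7% of the WT-led ones. A run of 4 G, GGGG, was in 18.4% of the KO-led footprints, 11.3% of those held by both and 10.6% of the WT-led ones. Windows around the members had CCCC in 28.2% and GGGG in 23.1%. Over all footprints the shares were 21.4% for CCCC and 11.2% for GGGG, and in the windows around them 19.5% and 19.0%. In members as in the whole table the run of C was thus more frequent in footprints than beside them, and the run of G less frequent. Among footprints of at least 45% G+C, CCCC was found in 42.1% of the KO-led ones (36.1% to 48.3%), 39.3% of those held by both and 34.5% of the WT-led ones.

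AU-rich motifs were less frequent in the members. ATTTA, the core of AU-rich elements, was in 5.30% of the KO-led footprints (3.33% to 8.32%), 10.5% of those held by both and 13.4% of the WT-led ones. It was in 11.9% of all footprints and in 8.57% of the windows around members. The polyadenylation signal AATAAA was in 2.18% of the KO-led footprints, 5.51% of those held by both and 8.29% of the WT-led ones, and in 7.00% of all. The Pumilio motif was in 1.87% of the KO-led footprints (0.859% to 4.02%), 3.69% of those held by both and 4.05% of the WT-led ones. It was in 3.81% of all footprints and in 1.87% of the windows around members. For this motif the interval of the members includes the shares of all footprints and of those held by both.

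**Figure D5:**
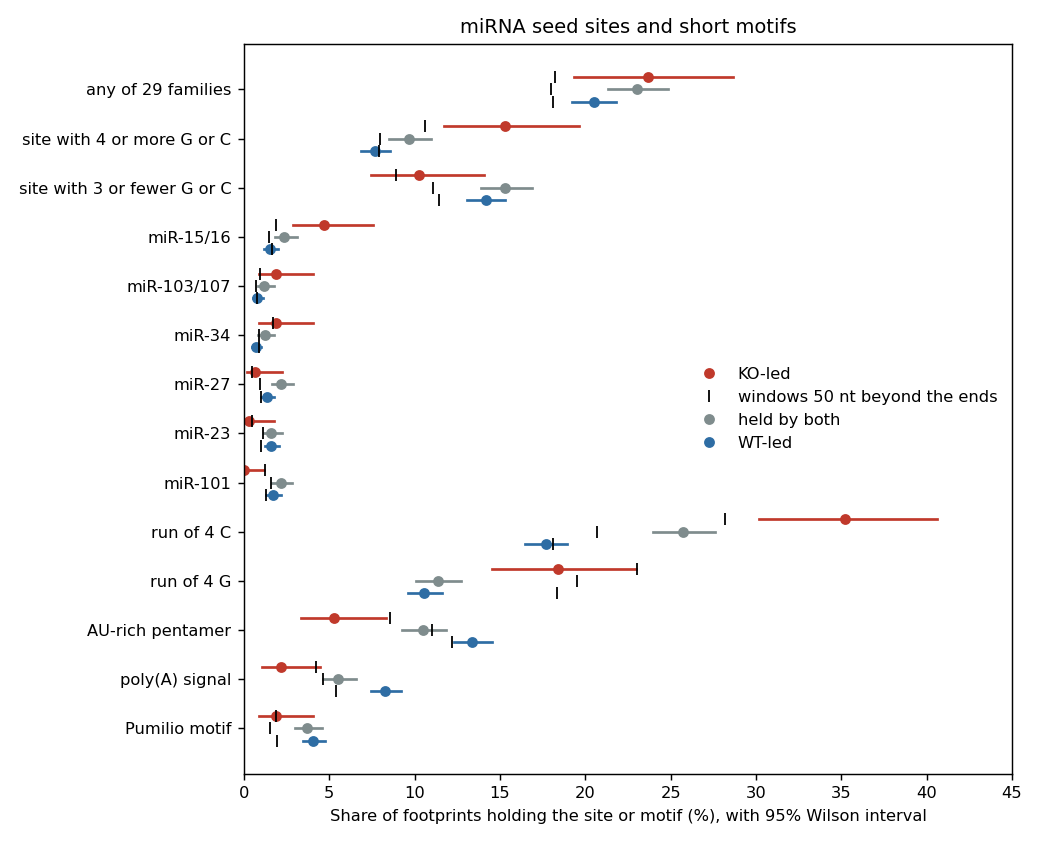
Share of footprints (horizontal, %) with a miRNA seed site or a short motif, with 95% Wilson intervals, for KO-led footprints, footprints held by both and WT-led footprints. Black ticks give the share of windows of the same length 50 nt beyond the ends. The share with any site was 23.7%, 23.0% and 20.5%, while that with a run of 4 C was 35.2%, 25.7% and 17.7% in the same order.

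By function, KO-led footprints were spread over the groups of genes that were looked up. They were 5.12% of all footprints and 7.82% (19 of 243) of those on genes for transporters and channels. The highest of these, beside Slc7a8 and Slc4a7, were Slc16a10, a carrier of aromatic amino acids (2.34 in KO and 0.708 in WT), and Slc41a2, a magnesium transporter (1.72 in KO and 0.198 in WT). Chromatin regulators had 7.19% (10 of 139), among them Nsd1, Tet3, Cbx5 and Kdm2a, a histone demethylase (1.01 in KO and 0.361 in WT). The Wilson intervals, 5.06% to 11.9% for transporters and 3.95% to 12.7% for chromatin regulators, reach down to near the share of the whole table.

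Transcription factors had 16 members of 303 footprints (5.28%). Mnt, a Myc antagonist, had 2.52 in KO and 0.429 in WT, Zfp703 had 1.79 in KO and 0.175 in WT, and Smad4, the shared mediator of TGF-beta signals, had 0.963 in KO and 0.0564 in WT. Genes of endocytosis and vesicle traffic had 13 of 255 (5.10%). Of these, 13 were higher in KO by 2-fold, beside 72.9% of all members, a contrast that the rule used. Sorting nexins made up 5 of these genes, among them Snx12 (1.20 in KO and 0.150 in WT) and Snx18 (1.14 in KO and 0.239 in WT) beside Snx30. Kinases had 12 of 238 (5.04%), led by Stk35 (1.90 in KO and 0.192 in WT), and the actin cytoskeleton and adhesion group had 13 of 267 (4.87%), among them Dock8, an exchange factor for Cdc42 (0.369 in KO and 0.0959 in WT), and Wasf2, an activator of actin branching (0.323 in KO and 0.0589 in WT). Cell cycle genes had 6 of 117 (5.13%), among them Tob2, an antiproliferative relative of Btg2 (0.703 in KO and 0.163 in WT).

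Immune receptors and signalling had 9 of 204 (4.41%). Clec5a, an activating lectin receptor of myeloid cells, had 1.25 in KO and 0.163 in WT, Cd44, the hyaluronan receptor, 1.21 in KO and 0.551 in WT, and Cd164, a sialomucin, 1.32 in KO and 0.203 in WT. The ubiquitin system had 7 of 170 (4.12%), among them the ligase Ubr2 (1.23 in KO and 0.0892 in WT) and March8, a membrane-bound ligase (0.769 in KO and 0.0637 in WT). Lysosome and lipid genes had 7 of 180 (3.89%). They included Col4a3bp, which carries ceramide between membranes (1.76 in KO and 0.223 in WT). RNA-binding and decay genes had 9 of 303 (2.97%, 1.57% to 5.55%), the Ago genes Eif2c1 and Eif2c2 and the coactivator Rbm14 (1.15 in KO and 0.124 in WT) among them. Phosphatases had the smallest share, 2 of 113 (1.77%, 0.487% to 6.22%), with an interval that includes the 5.12% of the whole table. The 2 lay in Ptpre (1.37 in KO and 0.0969 in WT) and Synj1, a phosphoinositide phosphatase of endocytosis (0.899 in KO and 0.203 in WT). Footprints on genes in none of the lists had 5.29%.

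Transcripts reported elsewhere as edited by APOBEC1 had 4 KO-led footprints among 86 (4.65%), in 3 of 24 genes. Atf2, a transcription factor of stress responses, had 1.78 in KO and 0.297 in WT. Actr2, a subunit of the actin-branching complex, had 2, and the higher had 0.349 in KO and 0.157 in WT. Serinc1, a membrane protein linked to serine incorporation, had 0.315 in KO and 0.0867 in WT at a footprint of 29.6% G+C. Their share was close to that of the whole table. Whether these transcripts are edited in these cells was not analysed here.

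Apobec1 itself carried 3 footprints, none of them KO-led. As the removed piece of the gene is not named, they say nothing about the genotype. Of 13 gene symbols looked up as macrophage markers, 10 matched genes with footprints, 30 in all, with no KO-led one. For 0 of 30 the Wilson interval reaches 11.4%, which includes the 5.12% of the whole table. The marker genes of T cells, B cells, neutrophils, fibroblasts and osteoclasts carried none. Exact occupancy values recurred between footprints in the table. In KO, 22.1% of the KO-led footprints had a value found elsewhere in the column, against 12.6% of those held by both and 43.7% of the WT-led ones. In WT it was 10.3%, 10.2% and 24.2% in that order of classes. Their origin is not stated.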

How the data were processed

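Ago HITS-CLIP libraries, 3 per genotype, were grouped by the genotype label. The authors split reads by length, aligned mRNA reads to mm9, joined overlapping reads into clusters and took a footprint around each peak, per the series design text. Tools were Bowtie 0.12.8 and bedtools, per the submitters' processing notes. Per the same design text, occupancy was deposited by the authors as a ratio of footprint signal to RNA-Seq transcript expression, 1 combined value per genotype, beside the number of libraries that held the footprint. The way libraries were combined is not given, and the depth is unknown.

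Footprints were placed on NCBIM37 (mm9) with GENCODE vM1 annotation, strand from the footprint identifier, 3′ UTR first. Coordinates are counted from 1. Sequences came from the genome and from RefSeq, read with pysam 0.24.0 and samtools 1.23.1, and tables were made with pandas 2.3.3 and numpy 2.4.6. The scripts were tested on simulated data. The log2 ratio used a pseudocount of 0.00161, 50% of the smallest value above 0, which understates the ratios of low values.

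The members, gene lists, miRNA families and named genes were chosen with earlier results of these data known, including the relation of the KO to WT ratio to G+C content, so that relation is not independent support. Gene lists were corrected after their matched genes were seen. Named were the members in 3 KO and no WT libraries, the 10 highest in KO, the 10 highest and 10 lowest ratios at a mean occupancy of at least 0.425, genes with 2 or more members, members of 100 nt or more, up to 4 genes per list, sites of the 3 most frequent families, and the extremes of G+C content. A few of these are given by count alone. The CCCC run was added after the data were seen.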

Additional observations from a re-analysis of the deposited data

How the results depend on the processing

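No paired analysis was possible because the table holds 1 combined value per genotype, and for the same reason no library could be left out. Of the alternatives tried, 14 stayed within the spread of the value reported and 15 did not. Most of the values were shares, counts, G+C contents or positions, which have no direction to change. The sign of the log2 ratio could not decide anything, since the rule chose members on that contrast and a pseudocount keeps the sign. The difference in G+C within genes could have changed sign. It stayed positive, with 5.38 points in the central 62 nt and 3.77 points against footprints held by both. The median log2 ratio, 1.72, was 0.38 with a pseudocount of 1, 1.99 with members under the median occupancy of the table left out, 2.33 in the members that no WT library held and 2.15 in those held by 3 KO libraries. With a pseudocount of 1 the members higher by 2-fold were 40 in place of 234. The median G+C content, 50.8%, was 52.5% where no WT library held the member. The share in 3′ UTRs was 90.3% with coding sequence first, against 96.3%. The share with a seed site, 23.7%, was 8.72% with an 8-nt match, 54.2% with a 6-nt match and 18.7% in the central 62 nt. A neighbour held by at least 2 WT libraries was found within 100 nt for 17.1% and within 500 nt for 58.3%, against 37.7% within 200 nt. Alternatives chosen after seeing the data gave 0.935% (8-nt match) and 2.63% (3 KO libraries) in place of 4.67% for miR-15/16. They gave 3.77 points in place of 5.95 for the difference in G+C within genes when only footprints held by both were set beside the members. These alternatives hold other sites, members or footprints by construction, and no other cause was tested. Without counts per library, an absent footprint cannot be told from one under the read minimum.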
